A study of Mus musculus with 16 samples.

Results

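The cell division cycle was read in CD11b+ brain cells through 40 genes of cell cycle progression and DNA replication, chosen by name for their textbook roles. A listed gene was kept where it had more than 10 counts in at least 4 of the 16 libraries. All 40 listed genes passed, out of 14565 genes that passed the same filter and 24421 rows in the count table. Cdc6 lay closest to the limit with 7 libraries above 10 counts, followed by Ccne2 with 9 and Ccnb1 with 10, and no listed gene lay outside it.

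A dividing cell licenses its replication origins in G1 by loading the MCM helicase, copies its DNA in S phase with the help of the PCNA clamp and a raised supply of nucleotides, and then builds a spindle under the control of cyclin B and CDK1. Genes for the last steps, such as the proliferation marker Mki67, are transcribed mainly in G2 and M phase, whereas replication genes peak at G1/S and keep some RNA in resting cells. Adult microglia renew themselves by slow local division that depends on the CSF1 receptor, and most of them are out of the cycle at any time.

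The libraries came from female C57BL/6J mice that were 3 weeks old on arrival, with 1 library per mouse. CON mice (n = 4) ate a standard diet with 20% protein and 15% fat, and MAL mice (n = 5) ate an isocaloric diet with 7% protein and 5% fat. MAL-BG mice (n = 7) ate the MAL diet and, after 2 weeks on it, received 3 gavages of E. coli and Bacteroidales within 5 days, while the other groups received PBS. CD11b is carried by microglia and also by neutrophils, monocytes, and macrophages, so the magnetic enrichment takes all of these, and the labels name cortical tissue where the methods name whole cerebra. No group received the bacteria on the standard diet, so the bacteria were tested on the MAL diet alone.

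Library totals ran from 10312703 to 13461574 counts in CON and MAL and from 14191791 to 18705202 in MAL-BG, so that MAL-BG libraries were the deeper ones. Levels are given as CPM, each count divided by a library total that was adjusted by TMM, a scaling that sets most genes equal between libraries. A gene was called when edgeR's adjusted p was under 0.05 and its absolute log2 fold change was at least 0.58. The 10 microglia markers summed to between 16801 and 50302 CPM, and the lowest MAL-BG library (36846) was above the highest of the other groups (29780). Against CON, 1659 of 14565 genes were called higher in MAL-BG (11.4%) and 3161 lower (21.7%), and against MAL, 1479 were higher (10.2%) and 2944 lower (20.2%). The share of calls that were higher against CON was 34.4%, but 22.4% without a scaling factor and 61.4% with length and GC offsets and mean log2 CPM scaling, and the median of all genes moved from -0.04 to -0.17 and 0.25 under these scalings.

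MAL-BG library 5 stood apart and is treated separately throughout. It had the highest CPM of all 16 libraries for all 40 genes, whereas it was the highest library for 6.52% of all genes tested. It held at least 2 times the level of the next highest library for 23 of the 40 genes, against 1.34% of all genes tested. Values of the 40 genes against CON are therefore given with and without it.

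Promoter windows show letters that these genes share outside the measurements. Many cell cycle promoters carry CCAAT boxes, which bind NF-Y, together with a cell cycle genes homology region (CHR, TTTGAA or TTCGAA), which binds the MuvB complex in late cell cycle genes, or E2F sites, which are frequent in S phase genes. RefSeq windows of 250 bases before to 50 bases after the start (GRCm38.p6) were found for 32 of the 40 genes. Entries for Kif20a, Aurkb, Gins2, Stmn1, Mcm4, Ccna2, Ccne2, and Tpx2 were not used here. On both strands, a CHR in either form stood in 14 of 18 windows of G2/M genes and in 2 of 14 windows of S-phase genes, against 13.7% of the windows of 11034 tested genes and 19.4% of all 27025 windows. CCAAT stood in 16 of the 18 G2/M windows and 9 of the 14 S-phase windows, against 38.2% of tested genes and 37.9% of all windows. Any of 4 E2F forms (TTTCCCGC, TTTCGCGC, TTTGCCGC, TTTGGCGC) stood in 1 of 18 G2/M windows and 6 of 14 S-phase windows, against 3.92% and 2.32%. Sites that overlap each other were each counted. These are matches of letters and were not tested for binding.

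The bases upstream of the start are shown for the 7 genes that were called against CON when library 5 was left out, 6 of them higher and Kif11 lower, since these calls do not need that library. Mcm5 and Mcm7 also had an adjusted p under 0.05 without it, which makes 9 of 40, but at folds below the threshold. Each runs 5′ to 3′ along its gene, and capitals mark a CCAAT box, a CHR, or an E2F form on either strand. For Ccnb1 the bases that lie inside the annotated gene were left off.
Ccnb1, chr13:100786571-100786736, minus strand: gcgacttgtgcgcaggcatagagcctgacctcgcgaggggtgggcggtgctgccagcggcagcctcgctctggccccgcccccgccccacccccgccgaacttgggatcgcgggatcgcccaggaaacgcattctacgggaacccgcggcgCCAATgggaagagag
Aurka, chr2:172370571-172370820, minus strand: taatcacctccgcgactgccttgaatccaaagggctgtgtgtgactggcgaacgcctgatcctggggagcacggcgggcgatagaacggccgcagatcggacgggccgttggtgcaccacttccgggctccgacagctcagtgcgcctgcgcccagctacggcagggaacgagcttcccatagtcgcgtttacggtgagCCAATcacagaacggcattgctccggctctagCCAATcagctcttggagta
Birc5, chr11:117848987-117849236, plus strand: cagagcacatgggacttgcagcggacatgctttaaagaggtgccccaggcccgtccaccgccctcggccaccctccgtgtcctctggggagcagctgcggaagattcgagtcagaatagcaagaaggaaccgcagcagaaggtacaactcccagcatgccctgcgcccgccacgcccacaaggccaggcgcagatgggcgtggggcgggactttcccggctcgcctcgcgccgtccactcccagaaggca
Cdc20, chr4:118437344-118437593, minus strand: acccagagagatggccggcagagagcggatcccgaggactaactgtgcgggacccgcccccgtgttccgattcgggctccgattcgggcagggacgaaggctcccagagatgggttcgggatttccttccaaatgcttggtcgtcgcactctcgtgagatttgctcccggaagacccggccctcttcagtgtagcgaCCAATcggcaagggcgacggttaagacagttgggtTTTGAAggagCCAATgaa
Kif11, chr19:37376132-37376381, plus strand: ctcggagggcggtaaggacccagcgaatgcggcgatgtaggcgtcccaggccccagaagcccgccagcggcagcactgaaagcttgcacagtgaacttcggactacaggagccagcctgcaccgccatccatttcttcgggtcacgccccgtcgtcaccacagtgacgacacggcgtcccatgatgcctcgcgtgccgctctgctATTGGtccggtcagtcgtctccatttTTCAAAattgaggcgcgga
Mcm3, chr1:20820313-20820562, minus strand: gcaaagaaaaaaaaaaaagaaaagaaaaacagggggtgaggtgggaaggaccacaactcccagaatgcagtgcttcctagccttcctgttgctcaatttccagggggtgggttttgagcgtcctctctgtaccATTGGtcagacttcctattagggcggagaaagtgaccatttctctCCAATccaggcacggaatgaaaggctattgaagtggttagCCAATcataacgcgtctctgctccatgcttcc
Tyms, chr5:30073626-30073875, minus strand: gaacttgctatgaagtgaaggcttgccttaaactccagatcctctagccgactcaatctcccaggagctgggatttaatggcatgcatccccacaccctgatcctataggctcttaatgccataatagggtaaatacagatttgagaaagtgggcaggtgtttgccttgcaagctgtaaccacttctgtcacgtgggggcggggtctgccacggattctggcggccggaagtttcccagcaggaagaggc

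Cdc20 and Kif11 show a CHR close to the start beside a CCAAT box, first bases at -18 and -19 from it. Ccnb1, Aurka, and Mcm3 show CCAAT boxes only, although the Aurka window holds a CHR at 32 past its start and the Mcm3 window E2F forms at 19 and 38. The windows of Birc5 and Tyms hold none of these letters. Genes with and without these letters were therefore both among the genes called.

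The genes fall into 22 of G2/M, 17 of G1/S and S phase, and Stmn1, which codes for the tubulin-binding protein stathmin. Levels between genes were compared as CPM per kb of exon, averaged over the 15 libraries other than library 5. On that scale Pcna was the highest at 24.1, followed by Mcm3 at 13.3, Stmn1 at 11.4, and Mcm4 at 6.24. The G2/M genes ran from 0.225 for Bub1 and Cenpf to 1.66 for Cdc20, so every one of them lay below Mcm2 at 1.88. The replication genes thus supplied most of the RNA of the set in these cells.

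**Figure D1:**
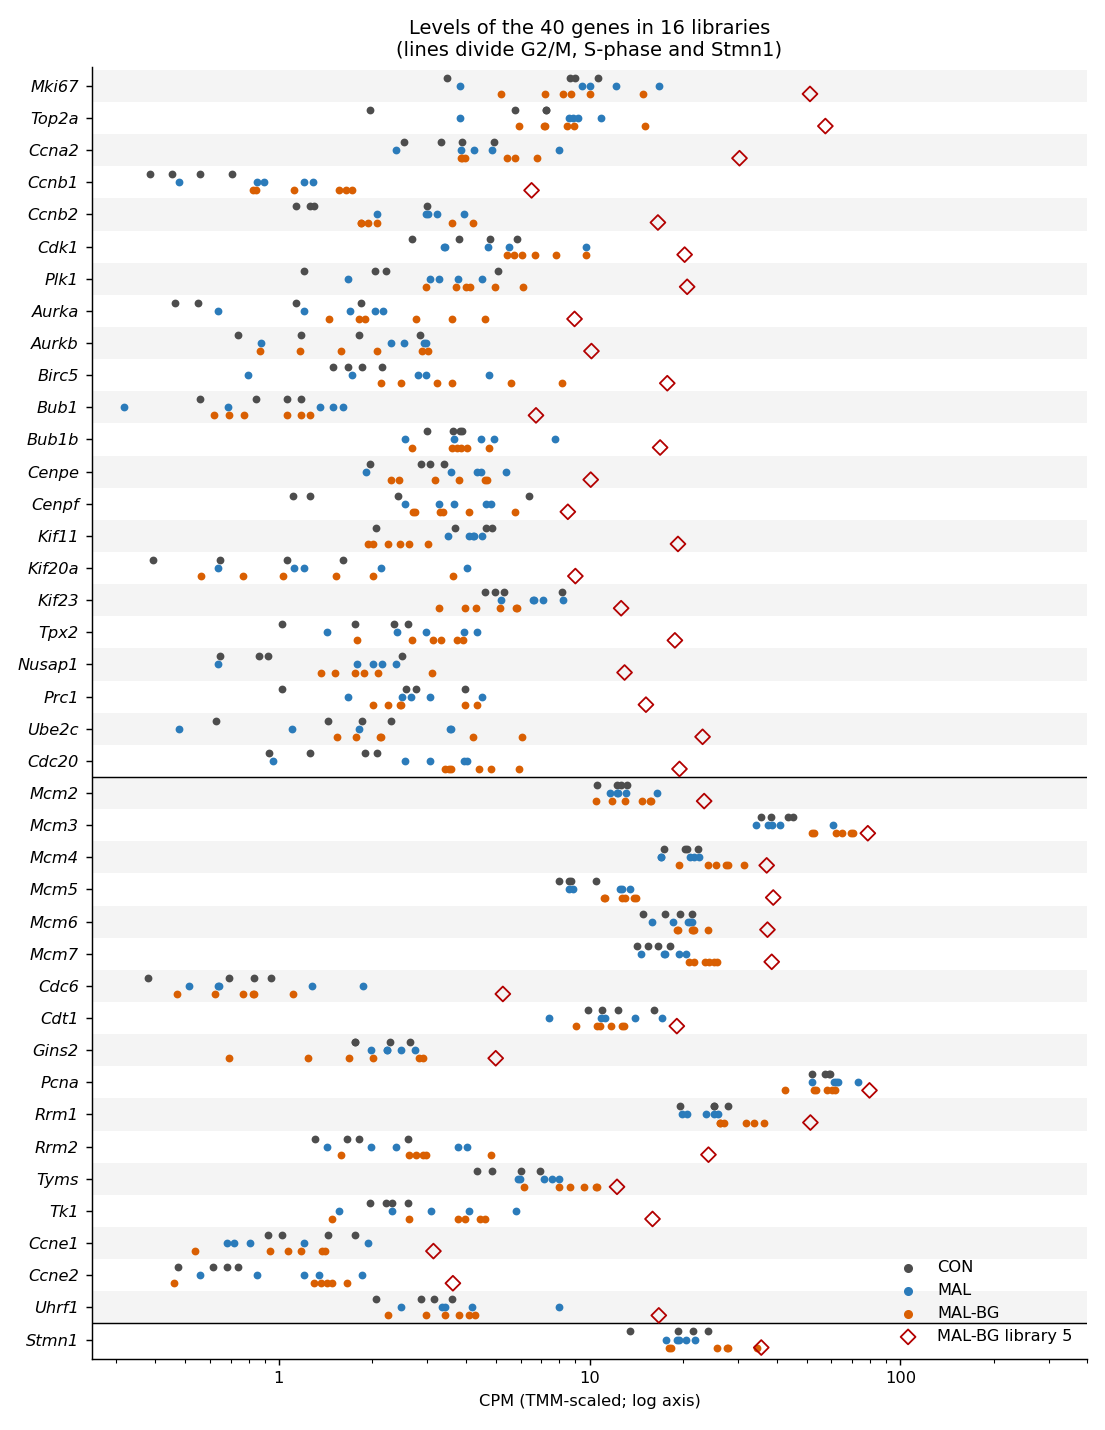
CPM of each of the 40 genes (rows) in each of 16 libraries on a log axis, with CON, MAL, and MAL-BG libraries as points and MAL-BG library 5 as an open diamond. The diamond is the rightmost mark in all 40 rows, far from the rest in most G2/M genes and close to them in Mcm3, Pcna, and Stmn1.

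Summed over the 22 G2/M genes, library 5 had 412 CPM. The other 6 MAL-BG libraries had 70.1, 90.0, 72.9, 65.1, 78.3, and 118 CPM, the 4 CON libraries 78.6, 59.6, 37.7, and 64.7 CPM, and the 5 MAL libraries 80.8, 84.7, 83.4, 115, and 42.9 CPM. Without library 5 the 3 groups overlapped, and the next highest libraries were MAL-BG 7 and MAL 4. Summed over the 17 S-phase genes, library 5 had 490 CPM, the other MAL-BG libraries 250 to 304, CON 222 to 235, and MAL 208 to 300.1 CPM. Here MAL-BG and CON did not overlap, and the MAL range overlapped that of MAL-BG through MAL 4. The gap from CON came from the 9 origin licensing and helicase genes, Mcm3 among them. These summed to 159 to 188 CPM in the other MAL-BG libraries and 125 to 138 in CON. The 5 clamp and nucleotide genes overlapped, at 85.0 to 116 against 82.2 to 95.8 CPM, as did the G1/S cyclins and Uhrf1. The ratio of the G2/M sum to the S-phase sum was 0.841 in library 5, against 0.232 to 0.389 in the other MAL-BG libraries, 0.161 to 0.354 in CON, and 0.206 to 0.383 in MAL.

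The excess of library 5 over the median of the other 6 MAL-BG libraries differed by role. It was 2.55 to 10.9 times for G2/M genes, with a median of 5.68 times, and 1.24 to 8.52 times for S-phase genes, with a median of 1.74 times. Ube2c, the ubiquitin-conjugating enzyme of the anaphase-promoting complex, stood highest at 10.9 times. Among S-phase genes the highest were Rrm2, the regulated subunit of ribonucleotide reductase, at 8.52 times and the licensing factor Cdc6 at 6.60 times. Mcm3 at 1.24 times, Stmn1 at 1.33 times, Tyms at 1.34 times, and Mcm4 at 1.40 times were the lowest.

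**Figure D2:**
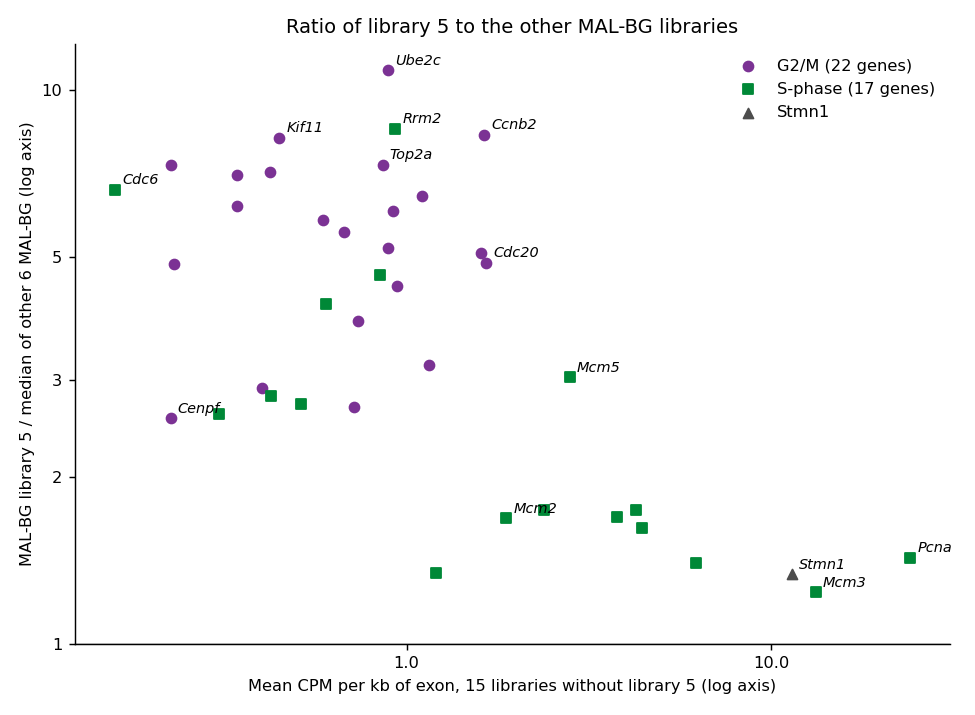
Ratio of MAL-BG library 5 to the median of the other 6 MAL-BG libraries for each gene, against its mean level in CPM per kb of exon over the other 15 libraries, both on log axes. All 22 G2/M genes (circles) lie at 2.55 times or above, and the abundant replication genes Pcna and Mcm3 and the stathmin gene Stmn1 lie at 1.43, 1.24, and 1.33 times.

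Markers of neutrophils and their precursors moved with this library, and monocyte markers did so only in part. The 6 neutrophil precursor markers (Mpo, Elane, Prtn3, Ctsg, Fcnb, Cebpe), which are made while granulocytes develop in bone marrow, summed to 1132 CPM in library 5, 0.891 to 92.4 in the other MAL-BG libraries, 0.614 to 20.1 in CON, and 0.796 to 4.77 in MAL. All 6 were highest in library 5, with Mpo, the myeloperoxidase gene, at 506 CPM there, 34.2 in MAL-BG 7, and 0 in 5 of the 16 libraries. The 9 neutrophil markers with a row in the table summed to 13442 CPM in library 5, 193 to 3039 in the other MAL-BG libraries, and 43.8 to 336 in CON and MAL, and all 9 were highest in library 5. Monocyte markers summed to 1071 CPM there against 139 to 431 elsewhere, with 2 of 6 at their highest in library 5. Chil3 gave 661 CPM of that sum and Ly6c2 127 CPM. Ccr2, Plac8, F13a1, and Vcan in library 5 lay within the range of the other libraries. Microglia markers in library 5 (36941 CPM) lay within the range of the other MAL-BG libraries (36846 to 50302 CPM). The part of these cells in the levels of the cycle genes was not tested. In bulk samples like these, fewer cells of a type and less RNA per cell cannot be told apart.

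**Figure D3:**
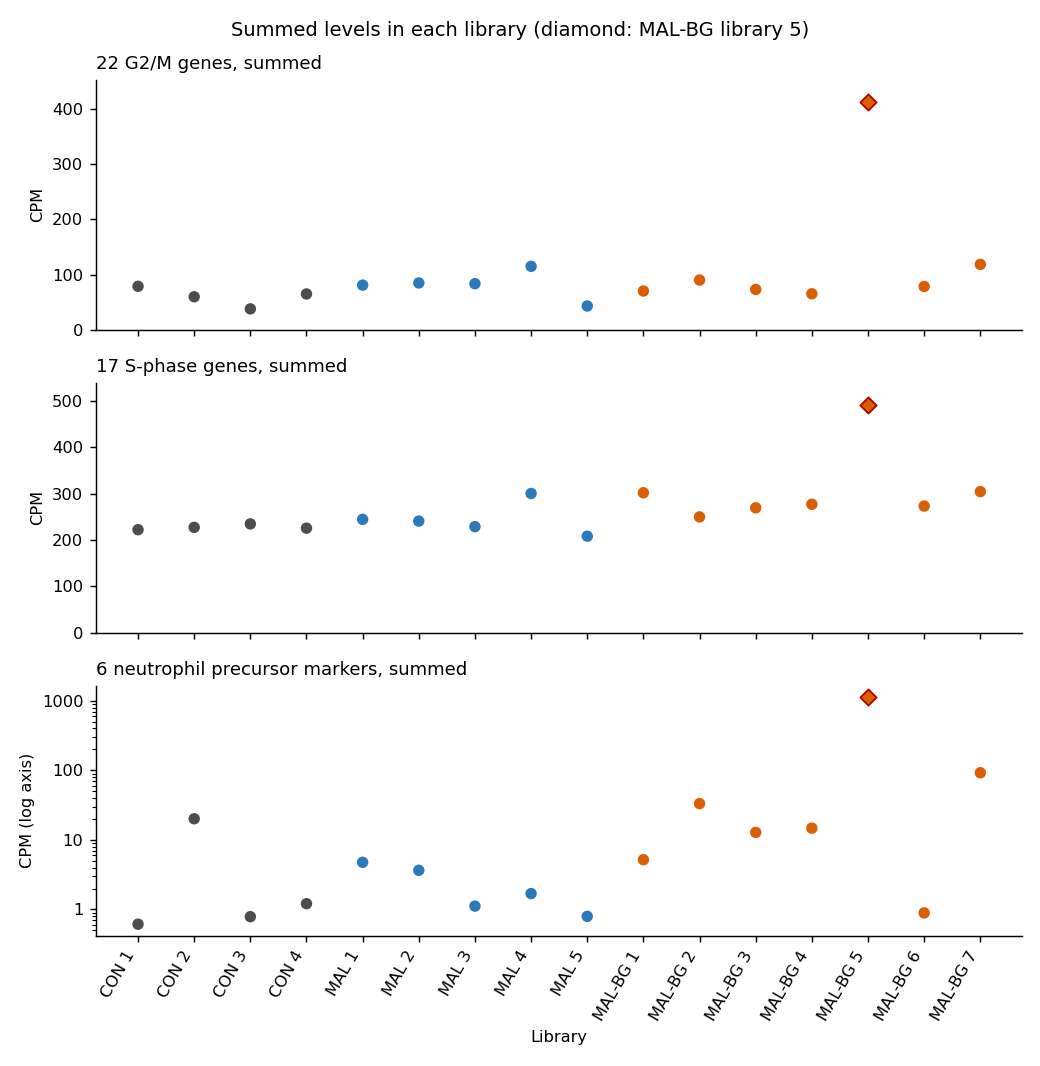
Summed CPM of 22 G2/M genes, 17 S-phase genes, and 6 neutrophil precursor markers (log axis in the lowest panel) in each of the 16 libraries, coloured by group. MAL-BG library 5 (diamond) is the highest in all 3 panels, at 412, 490, and 1132 CPM.

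Other marker lists did not have library 5 at the top. Lymphocyte markers (7 with a row) summed to 73.4 CPM in library 5 and 43.0 to 76.6 in the other MAL-BG libraries, against 20.6 to 46.9 in CON and MAL. Neuroblast and progenitor markers summed to 61.3 CPM there and 52.1 to 142 elsewhere, oligodendrocyte progenitor markers to 43.0 and 24.6 to 123, oligodendrocyte markers to 855 and 348 to 1142, and endothelium and mural markers to 1144 and 419 to 3082. Among erythroid markers, 4 of 6 (Hba-a1, Hba-a2, Hbb-bs, Hbb-bt) were at 0 in all libraries, and the list summed to at most 4.69 CPM. Border macrophage markers summed to 191 to 315 CPM in MAL-BG and 208 to 737 in CON and MAL. Neuron (18.1 to 69.3 CPM), astrocyte (136 to 238), ependyma (24.2 to 84.4), and choroid plexus markers (1451 to 12907) were low in MAL-BG against 40.7 to 216, 264 to 578, 49.96 to 205, and 4872 to 40543 CPM in CON and MAL, and early response genes, which dissociation induces, summed to 8464 to 23404 CPM against 17172 to 41976. These lists shift with the groups, and their part in the differences below was not tested.

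Compared with CON, MAL-BG had 11 of the 40 genes called higher and 0 lower, and fitted log2 fold changes were above 0 for all 40 with a median of 0.90, against a median of -0.04 over all genes. The share of all genes called higher was 11.4%. Of the 40, 22 had an unadjusted p under 0.05, beside 7678 of all 14565 genes. Without library 5, 6 genes were higher and 1 lower, against 11.2% and 22.5% of all genes, the fitted change was above 0 for 34, and the median fell to 0.39. The count was 7 when CON 3 or CON 4 was left out and 17 when MAL-BG 4 or MAL-BG 6 was left out. It was 19 with DESeq2, 6 without a scaling factor, and 24 with length and GC offsets and mean log2 CPM scaling, which moved all genes upward. Over all genes, higher calls were 1836, 1047, and 3603 under these settings, and 1659 in the main fit. Ccnb1, Aurka, Birc5, Cdc20, Mcm3, and Tyms were called with and without library 5, while Cdk1, Mcm5, Mcm7, Rrm2, and Ccne2 were not called without it.

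Compared with MAL, only Mcm3 of the 40 genes was called higher and 0 were called lower by edgeR, against 10.2% and 20.2% of all genes. An unadjusted p under 0.05 was found for 12 of the 40, beside 7609 of all 14565 genes. DESeq2 called 5 higher and 1 lower, beside 1731 and 2977 of 14536 genes. The median log2 fold change was 0.53, with 38 of 40 above 0. Without library 5, 0 were higher and Kif11 was lower, against 10.3% and 21.0% of all genes. An unadjusted p under 0.05 was then found for 6 of the 40, beside 7578 of 14505 genes. The median was 0.05, with 25 of 40 above 0. Left out one at a time, CON 1 or MAL-BG 7 gave 2 calls, MAL 4 or MAL-BG 1 gave 3, MAL-BG 6 gave 4, MAL-BG 2, MAL-BG 3, or MAL-BG 4 gave 5, and MAL 1, MAL 2, or MAL 3 gave 0. The comparisons with CON and with MAL share the same MAL-BG libraries.

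**Figure D4:**
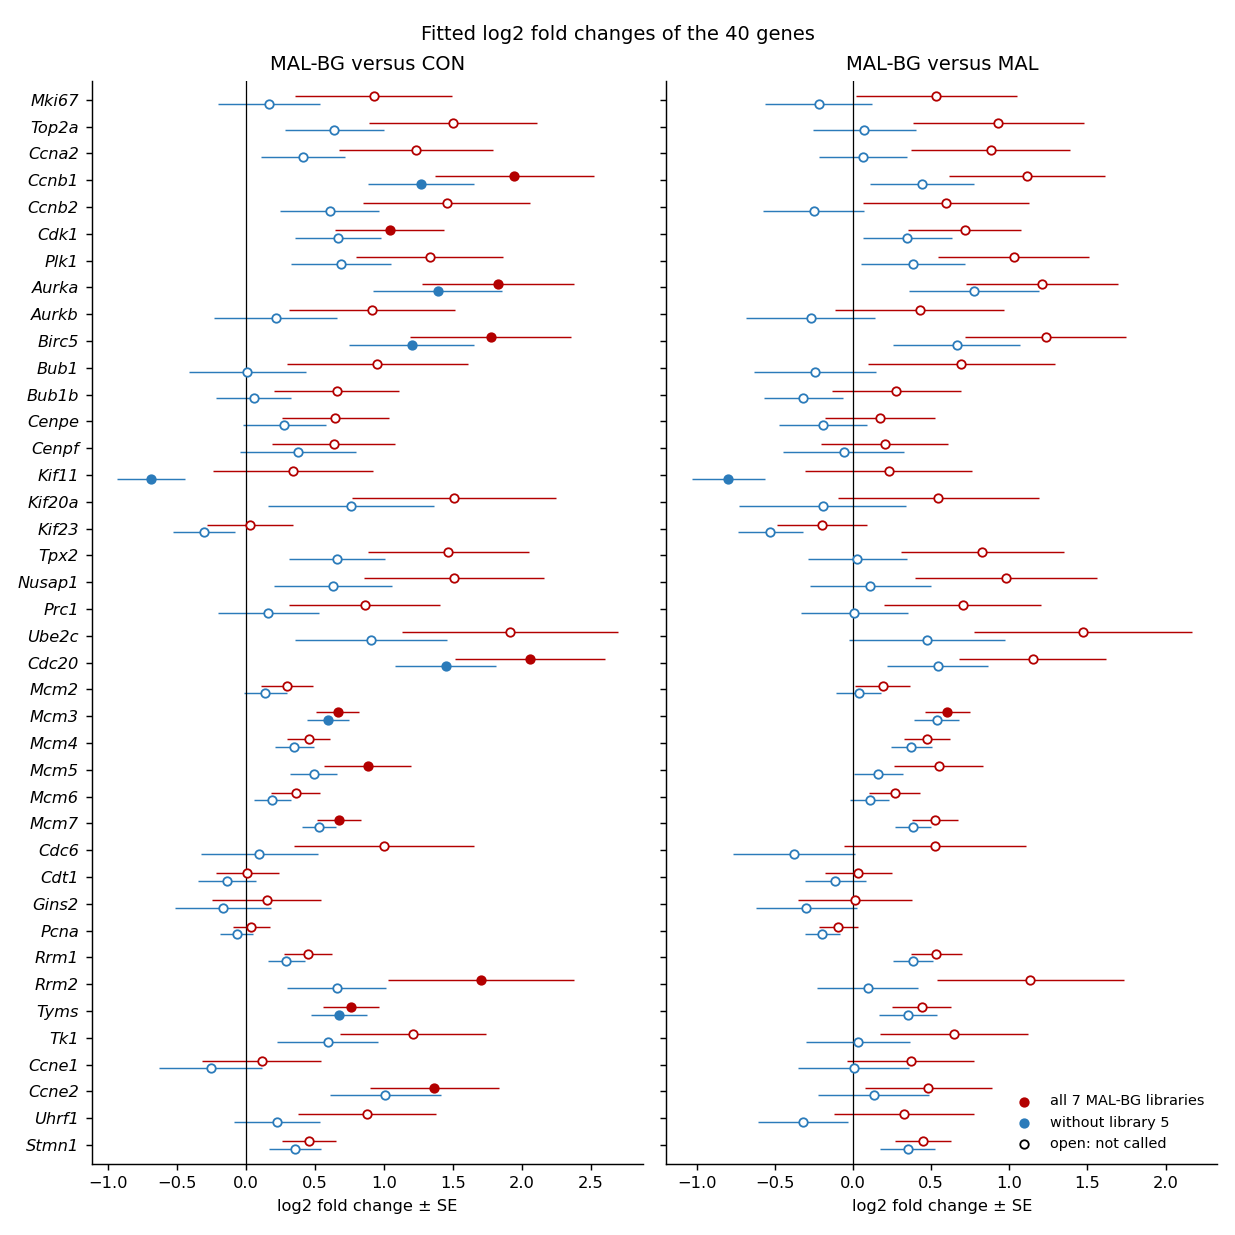
Fitted log2 fold change with its SE for each of the 40 genes, MAL-BG against CON (left) and against MAL (right), with all 7 MAL-BG libraries (red) and without library 5 (blue). Filled points were called by edgeR. Against CON, 11 red and 7 blue points are filled, and leaving out library 5 moves Kif11 from 0.34 to -0.69.

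The chromatin-bound proliferation markers did not pass the test. Mki67, which coats mitotic chromosomes, had 10.7, 8.998, 3.47, and 8.63 CPM in CON and 10.04, 9.47, 12.1, 16.7, and 3.82 CPM in MAL. In the MAL-BG libraries other than library 5 it ran from 5.19 over a median of 8.48 to 14.9 CPM, with 51.2 CPM in library 5. The groups overlapped, with MAL 4 the highest library after library 5. The log2 fold change against CON was 0.93 ± 0.57 (SE, adjusted p = 0.195 by edgeR) and 0.17 ± 0.37 without library 5 (adjusted p = 0.738). Top2a, the topoisomerase that untangles replicated DNA, had 7.22, 5.75, 1.97, and 7.27 CPM in CON, 3.82 to 10.9 CPM in MAL, 5.92, 7.83, and 15.1 CPM as lowest, median, and highest of the other MAL-BG libraries, and 57.4 CPM in library 5. Its log2 fold change against CON was 1.5 ± 0.61 (adjusted p = 0.0538) and 0.64 ± 0.36 without library 5 (adjusted p = 0.160).

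Of the mitotic cyclins and their kinase, Ccnb1 rose against CON with and without library 5. Ccnb1, cyclin B1, had 0.384, 0.557, 0.709, and 0.454 CPM in CON, 0.851, 0.895, 1.20, 1.29, and 0.478 CPM in MAL, 0.827 to 1.72 CPM in the other MAL-BG libraries, and 6.51 CPM in library 5. MAL-BG and CON did not overlap, and MAL lay across both ranges. The difference from CON was 1.95 ± 0.58 on the log2 scale (adjusted p = 0.012) and 1.27 ± 0.38 without library 5 (adjusted p = 0.0137), and it was called in all 16 fits that left out 1 library. Ccnb1 is a low gene, with 5, 6, 9, and 6 counts in CON and 11 to 29 counts in the other MAL-BG libraries. Its mean of 20.2 counts per library is raised by 120 counts in library 5. No CON library exceeded 10 counts, so the gap between MAL-BG and CON rests on few counts. Cdk1, the kinase partner of cyclin B, had 5.84, 3.80, 2.68, and 4.77 CPM in CON, 3.41 to 9.75 CPM in MAL, 5.42 to 9.72 CPM in the other MAL-BG libraries, and 20.2 CPM in library 5. Its difference from CON was 1.04 ± 0.40 (adjusted p = 0.042) and, without library 5, 0.67 ± 0.31 (adjusted p = 0.0916), and 7 of the 16 fits that left out 1 library did not call it. Ccna2 (1.23) and Ccnb2 (1.45) had adjusted p of 0.0828 and 0.0597 against CON, and without library 5 they were at 0.41 (adjusted p = 0.286) and 0.61 (adjusted p = 0.179).

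Among mitotic kinases and checkpoint genes, Aurka and Birc5 rose against CON. Aurka, the centrosomal kinase Aurora A, had 1.84, 0.464, 0.552, and 1.14 CPM in CON, 0.637 to 2.16 CPM in MAL, 1.45, 2.34, and 4.60 CPM as lowest, median, and highest of the other MAL-BG libraries, and 8.95 CPM in library 5. The ranges overlapped through CON 1. In CON 2 and CON 3, Aurka was as low as Ccnb1 was in CON, so its values there also rest on few counts. The log2 fold change was 1.83 ± 0.55 (adjusted p = 0.0129) and 1.39 ± 0.47 without library 5 (adjusted p = 0.0245). Birc5, survivin, which guides Aurora B on chromosomes, had 2.15, 1.86, 1.497, and 1.67 CPM in CON, 0.796 to 4.75 CPM in MAL, 2.14, 3.43, and 8.16 CPM as lowest, median, and highest of the other MAL-BG libraries, and 17.8 CPM in library 5. Its log2 fold change was 1.77 ± 0.58 (adjusted p = 0.0205) and 1.20 ± 0.45 without library 5 (adjusted p = 0.0411), and the call was lost without CON 3 or CON 4. Plk1, Aurkb, Bub1, and Bub1b had fitted changes between 0.66 and 1.33 that did not pass, and without library 5 Plk1 had 0.69, Aurkb 0.21, Bub1 0.01, and Bub1b 0.06.

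Among kinetochore, spindle, and cytokinesis genes, Kif11 fell once library 5 was left out. Kif11, the kinesin that pushes spindle poles apart, had 3.69, 4.64, 2.05, and 4.84 CPM in CON and 4.09, 4.25, 4.22, 4.51, and 3.50 CPM in MAL. In MAL-BG it had 2.24, 2.45, 2.62, 1.93, 3.03, and 2.003 CPM in libraries 1, 2, 3, 4, 6, and 7 and 19.3 CPM in library 5. The 6 libraries lay below all 5 MAL libraries, and CON 3 lay within their range. With all libraries the log2 fold change was 0.34 ± 0.58 against CON (adjusted p = 0.655) and 0.23 ± 0.54 against MAL (adjusted p = 0.752). Without library 5 it was -0.69 ± 0.25 (adjusted p = 0.0339) and -0.80 ± 0.23 (adjusted p = 0.0125). The lower call against CON was lost when CON 1, CON 2, CON 4, or MAL 4 was left out as well. It was also lost when MAL-BG 1, MAL-BG 2, MAL-BG 4, or MAL-BG 7 was left out as well. The lower call against MAL was kept with any 1 further library left out. Kif11 was the 1 member whose count in library 5 DESeq2 replaced as an outlier, and DESeq2 called it lower against MAL. Kif23, which builds the central spindle, had 0.03 and -0.20 with all libraries and, without library 5, -0.31 (adjusted p = 0.281) and -0.53 (adjusted p = 0.0512). Cenpe, Cenpf, Kif20a, Tpx2, Nusap1, and Prc1 had fitted changes against CON of 0.64 to 1.51 with none called, the nearest being Tpx2, a spindle assembly factor, at 1.47 (adjusted p = 0.0503). Without library 5 these 6 genes had 0.16 to 0.76, with Tpx2 at 0.66 (adjusted p = 0.135). Exons of Kif20a, Nusap1, and Prc1 overlap genes on the other strand, and the strand option used for counting is not given in the sources used here.

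Of the partners of the anaphase-promoting complex, Cdc20 rose and Ube2c did not pass. Cdc20, the activator that starts anaphase, had 2.07, 0.928, 1.26, and 1.89 CPM in CON, 2.55, 4.03, 3.96, 3.06, and 0.956 CPM in MAL, 3.43 to 5.94 CPM in the other MAL-BG libraries, and 19.5 CPM in library 5. Every MAL-BG library lay above every CON library. Its difference from CON was 2.06 ± 0.54 (adjusted p = 0.00575), and 1.45 ± 0.37 without library 5 (adjusted p = 0.00509), called in all 16 fits that left out 1 library. Against MAL it was 1.15 ± 0.47 (adjusted p = 0.0561) and 0.54 ± 0.32 without library 5. Ube2c had 0.631 to 2.30 CPM in CON, 1.55 to 6.08 in the other MAL-BG libraries, and 23.1 in library 5, with a difference from CON of 1.91 ± 0.78 (adjusted p = 0.0561) and of 0.91 without library 5 (adjusted p = 0.191). Cdc20 overlaps Elovl1 (53 bases) and Ube2c overlaps Tnnc2 (592 bases) on the other strand. The same holds for Gins2 with Gse1 (2758 of 4097 exon bases), Ccna2 with Exosc9 (510), Plk1 with Gm44985 (156), and Tk1 with Afmid (83).

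The helicase genes moved less and more evenly. Mcm3, a subunit of the MCM ring, had 45.2, 38.3, 43.4, and 35.6 CPM in CON and 37.5, 38.6, 34.2, 60.8, and 40.9 CPM in MAL. The other MAL-BG libraries had 69.6, 62.0, 52.9, 64.8, 52.1, and 70.6 CPM, and library 5 had 78.6 CPM. MAL-BG and CON did not overlap, and MAL 4 was the 1 MAL library inside the MAL-BG range. The log2 fold change was 0.66 ± 0.16 against CON (adjusted p = 0.00278) and 0.60 ± 0.14 against MAL (adjusted p = 0.00324). Without library 5 it was 0.59 ± 0.15 (adjusted p = 0.00578) and 0.54 ± 0.14 (adjusted p = 0.00706), the second below the fold threshold. The call against MAL was also lost, by the fold threshold, without MAL 1, MAL 2, or MAL 3.

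Mcm7 and Mcm5, also MCM subunits, were called against CON only with library 5 included. Mcm7 had 18.1, 14.2, 15.4, and 16.7 CPM in CON, 17.5, 19.4, 17.4, 20.4, and 14.7 CPM in MAL, 20.9 to 25.7 CPM in the other MAL-BG libraries, and 38.6 CPM in library 5. The lowest MAL-BG library was above the highest library of both other groups. The difference from CON was 0.67 ± 0.16 (adjusted p = 0.00304) and, without library 5, 0.53 ± 0.12 (adjusted p = 0.00288), below the fold threshold. Against MAL it was 0.52 ± 0.15 (adjusted p = 0.00909) and 0.38 ± 0.11 (adjusted p = 0.0128). Mcm7 holds the microRNA genes Mir25 and Mir93 on its strand and overlaps Cops6 and Ap4m1 on the other. Mcm5 had 7.95 to 10.5 CPM in CON, 8.60 to 13.5 in MAL, 11.1 to 14.1 in the other MAL-BG libraries, and 39.0 CPM in library 5. Its difference from CON was 0.88 ± 0.31 (adjusted p = 0.0303) and 0.49 ± 0.17 without library 5 (adjusted p = 0.0272), and the call was lost without CON 1, CON 2, or CON 4.

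Mcm4 passed the adjusted p but not the fold threshold, at 0.45 ± 0.16 against CON (adjusted p = 0.0255) and 0.47 ± 0.14 against MAL (adjusted p = 0.0143). Without library 5 it was at 0.35 (adjusted p = 0.0567) and 0.37 (adjusted p = 0.0324). Mcm2, often used as a marker of cells licensed to replicate, had 12.3, 10.6, 13.2, and 12.6 CPM in CON, 11.6 to 16.4 in MAL, 10.5, 13.9, and 15.7 as lowest, median, and highest of the other MAL-BG libraries, and 23.4 CPM in library 5. It differed from CON by 0.30 ± 0.19 (adjusted p = 0.208) and Mcm6 by 0.36 ± 0.18 (adjusted p = 0.108), and without library 5 by 0.14 and 0.19. Summed over Mcm2 to Mcm7, CON had 112 to 123 CPM, MAL 109 to 154, the other MAL-BG libraries 147 to 172, and library 5 254 CPM. Of the other origin licensing and helicase genes, Cdt1 (0.01), Gins2 (0.15), and Cdc6 (1.0) did not pass against CON. Without library 5 these genes had -0.14, -0.17, and 0.10. With Ccnb1, Cdc20, Mcm3, Mcm5, and Mcm7, 5 of the 40 genes had no overlap between the 7 MAL-BG and the 4 CON libraries and were higher, and the same 5 without library 5, against 10.7% of all genes for the 6 libraries.

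**Figure D5:**
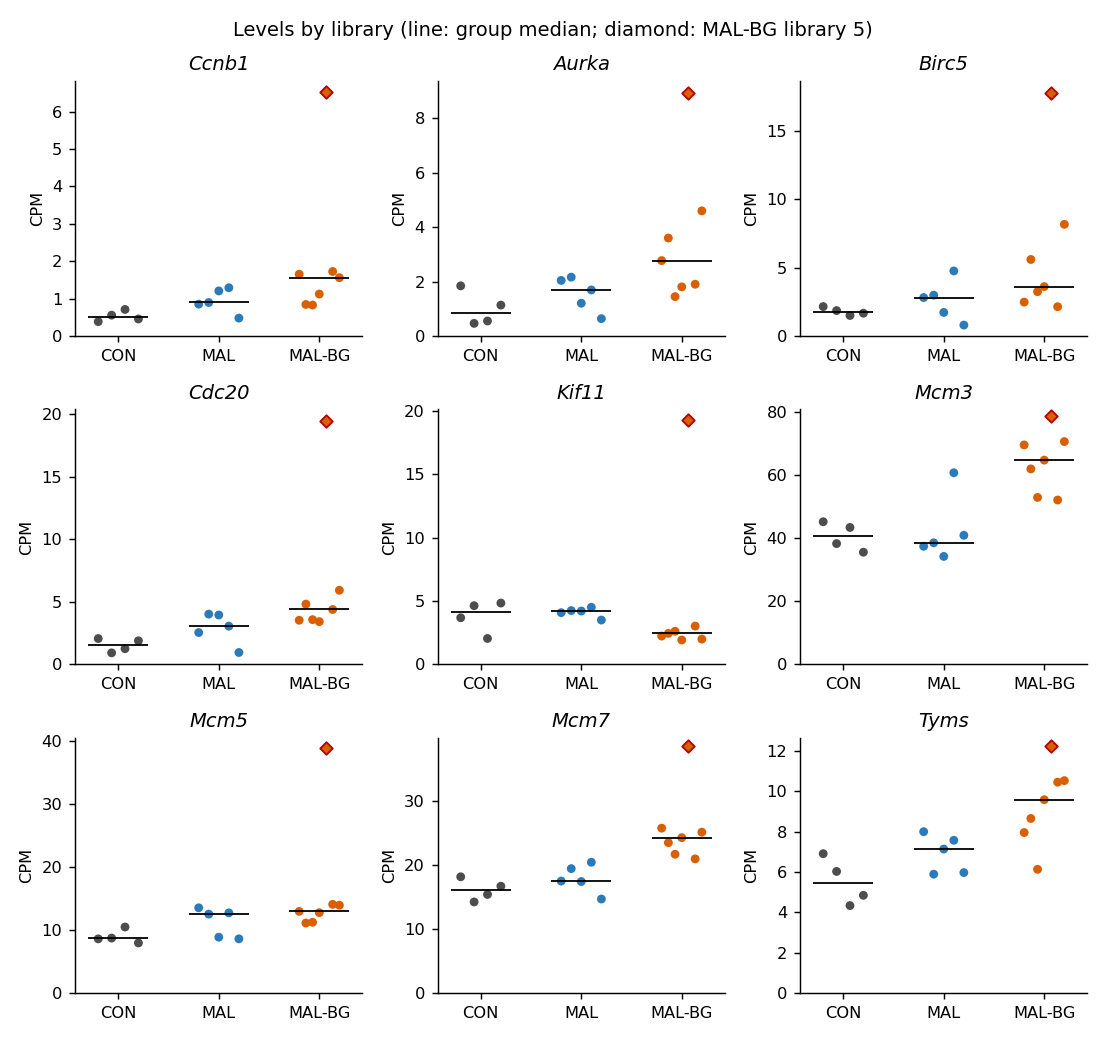
CPM by library for 9 genes in CON (4), MAL (5), and MAL-BG (7), with the group median as a line, an axis from 0, and MAL-BG library 5 as a diamond. Library 5 is the highest point of every panel. In Mcm3 it lies at 78.6 CPM above others at 52.1 to 70.6 CPM, whereas in Kif11 the other 6 MAL-BG libraries lie at 1.93 to 3.03 CPM and library 5 at 19.3 CPM.

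In the clamp and nucleotide group, Tyms rose and Pcna stayed near its level in CON. Tyms, thymidylate synthase, had 6.91, 6.03, 4.33, and 4.84 CPM in CON, 8.0, 5.89, 7.14, 7.57, and 5.97 CPM in MAL, 6.13, 9.12, and 10.5 CPM as lowest, median, and highest of the other MAL-BG libraries, and 12.3 CPM in library 5. The ranges overlapped through MAL-BG 3. The difference from CON was 0.76 ± 0.20 (adjusted p = 0.00646) and 0.67 ± 0.20 without library 5 (adjusted p = 0.0141), called in all 16 fits that left out 1 library. A processed copy, Tyms-ps, has its own row in the table, so reads of the pair may have been split. Rrm2 had 1.31 to 2.6 CPM in CON, 1.59 to 4.82 CPM in the other MAL-BG libraries, and 24.1 CPM in library 5, with a difference of 1.70 ± 0.67 (adjusted p = 0.0485) that was 0.66 ± 0.36 without library 5 (adjusted p = 0.146). The call on Rrm2 was kept in 6 of the 16 fits that left out 1 library, and was lost without any CON or any MAL library. Its partner Rrm1 had 26.2 to 36.4 CPM in the other MAL-BG libraries against 19.9 to 25.8 CPM in MAL, without overlap, and 19.5 to 27.8 CPM in CON. It differed by 0.45 ± 0.17 from CON (adjusted p = 0.0456) and 0.53 ± 0.16 from MAL (adjusted p = 0.0142), both below the fold threshold. Without library 5 Rrm1 was at 0.29 (adjusted p = 0.0944) and 0.38 (adjusted p = 0.0247). Mcm7 and Rrm1 were the 2 genes whose MAL-BG libraries all lay above all MAL libraries, against 8.67% of all genes for the 6 libraries without library 5.

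Pcna, the sliding clamp of the replication fork, had 51.9, 57.1, 59.3, and 59.1 CPM in CON, 51.8 to 73.2 in MAL, 42.7, 55.6, and 61.9 CPM as lowest, median, and highest of the other MAL-BG libraries, and 79.6 CPM in library 5. Its log2 fold change was 0.04 ± 0.14 against CON (adjusted p = 0.838) and -0.07 ± 0.12 without library 5 (adjusted p = 0.661). Tk1, the thymidine kinase of S phase, had 1.21 ± 0.53 (adjusted p = 0.0704) and 0.59 ± 0.37 without library 5.

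The G1/S cyclins are low genes, with means of 17.9 counts per library for Ccne1 and 18.0 for Ccne2. Ccne1 had 0.921, 1.76, 1.02, and 1.44 CPM in CON, 0.681 to 1.94 in MAL, 0.536, 1.12, and 1.41 as lowest, median, and highest of the other MAL-BG libraries, and 3.15 CPM in library 5, with a difference from CON of 0.11 ± 0.43 (adjusted p = 0.850) and -0.26 without library 5 (adjusted p = 0.601). Ccne2 had 0.614, 0.742, 0.473, and 0.681 CPM in CON, 0.557 to 1.85 in MAL, 0.460, 1.40, and 1.65 CPM as lowest, median, and highest of the other MAL-BG libraries, and 3.63 CPM in library 5. It differed from CON by 1.37 ± 0.47 (adjusted p = 0.0257) and, without library 5, by 1.01 ± 0.40 (adjusted p = 0.0526). The call was also lost without CON 1, CON 3, or CON 4, and Ccne2 overlaps Ints8 on the other strand. Uhrf1, which keeps DNA methylation through replication, had 2.05 to 3.62 CPM in CON, 2.24 to 4.29 in the other MAL-BG libraries, and 16.7 in library 5, with a difference of 0.88 ± 0.50 (adjusted p = 0.161) and of 0.23 without library 5 (adjusted p = 0.582). Stmn1, which is also abundant in neuroblasts, had 13.5, 24.03, 19.3, and 21.5 CPM in CON, 17.6 to 21.9 in MAL, 18.0, 26.7, and 34.5 CPM as lowest, median, and highest of the other MAL-BG libraries, and 35.7 CPM in library 5. It differed by 0.46 ± 0.20 from CON (adjusted p = 0.0665) and 0.45 ± 0.18 from MAL (adjusted p = 0.0543), and without library 5 by 0.35 from each.

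The comparison of MAL with CON addresses the diet alone. None of the 40 genes was called (0 of 40), as for all genes (0% of 14565 by edgeR, with 212 at an unadjusted p under 0.05, and 0 by DESeq2, with 241), and 0 of the 40 had an unadjusted p under 0.05. The smallest unadjusted p was 0.0934 and the smallest adjusted p 0.999. Fitted changes were above 0 for 36 of 40, with a median of 0.36 against -0.02 over all genes, and ran from -0.26 for Ccne1 to 0.96 for Kif20a. MAL 4 was the highest of the 9 CON and MAL libraries for 22 of the 40 genes, CON 3 was the lowest for 10, CON 2 for 8, MAL 5 for 7, and CON 1 for 6. Leaving out MAL 4 gave a median of 0.19, leaving out CON 3 0.22, and leaving out MAL 5 0.50.

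Other genes of the cycle were taken from 12 lists of 162 genes, of which 158 passed the filter. Against CON, 26 were higher and 9 lower, beside 11.4% and 21.7% of all genes, and against MAL 13 and 9, beside 10.2% and 20.2%. Without library 5 the counts were 15 and 11 against CON, beside 11.2% and 22.5% of all genes. Against MAL they were 12 and 14, beside 10.3% and 21.0%. In MAL against CON 0 were called. Of the genes named below as rising or falling in both MAL-BG comparisons, Gins1, Melk, and Ncaph lost a call without library 5.

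Brakes of the cycle were read through 7 CDK inhibitors and 4 BTG and TOB genes tested. Of these, Cdkn1a, Tob1, and Tob2 fell against CON and 0 rose, where 21.7% of all genes fell and 11.4% rose. Cdkn1a, the CDK inhibitor p21, had 34.2 to 53.0 CPM in MAL-BG against 136 to 215 in CON and 112 to 154 in MAL, without overlap, and fell by 2.0 on the log2 scale against CON (adjusted p = 1.85e-07) and by 1.63 against MAL (adjusted p = 3.24e-06). Library 5, at 39.8 CPM, lay within the other MAL-BG libraries. Tob1 and Tob2, antiproliferative adaptors of mRNA decay, fell by 2.08 and 1.05 against CON and by 1.54 and 0.98 against MAL. Their relative Btg2 fell by 0.72 against MAL (adjusted p = 0.0261) and had -0.48 against CON (adjusted p = 0.146). Cdkn1b, p27, had 45.9 to 82.8 CPM in MAL-BG against 91.7 to 113 in the other groups, with changes of -0.49 and -0.53 that passed the adjusted p (0.00556 and 0.0024) but not the fold threshold. Of the 7 CDK inhibitors, 1 was lower in each comparison, and of 4 BTG and TOB genes tested 2 were lower against CON and 3 against MAL. Over all genes, 21.7% were lower against CON and 20.2% against MAL. The early response list given above was also at lower sums in MAL-BG, and its part in these values was not tested.

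In the G1 machinery, Cdk6 fell by 0.62 against CON (adjusted p = 0.0242) and by 0.70 against MAL (adjusted p = 0.00906). The D cyclins Ccnd1 (0.22), Ccnd2 (-0.73), and Ccnd3 (0.10), as well as Cdk2 (0.09) and Cdk4 (0.22), did not pass against CON, with Cdk4 at an adjusted p of 0.0477 and 0.22 against MAL. Of the RB and E2F family, 1 was higher and 2 lower against CON out of 13, beside 11.4% and 21.7% of all genes. Tfdp2, a dimer partner of E2F, fell by 1.03 and 0.76, Rb1 (-0.20) and E2f1 (0.02) did not pass, and E2f4, at 0.35 against CON, passed the adjusted p (0.0244) but not the fold threshold. Of the genes that drive late cell cycle transcription, Lin9, a MuvB subunit, rose by 0.73 and 0.61. Foxm1 had -0.08 and Mybl2 -0.37 against CON with library 5, where they stood at 12.8 and 4.23 CPM. Without library 5 Foxm1 had -0.62 (adjusted p = 0.206) and Mybl2 fell by 1.11 (adjusted p = 0.0119) against CON and by 1.27 against MAL (adjusted p = 0.00396). Of the CSF1 receptor axis, Csf1r had 0.37 (adjusted p = 0.255) and its ligand Csf1 fell by 1.61 and 0.98.

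Replication genes outside the 40 were higher where they were called against CON. Of 19 other origin and fork genes 5 rose and 0 fell against CON, and 3 rose and 1 fell against MAL. Over all genes, 11.4% rose and 21.7% fell against CON, and 10.2% rose and 20.2% fell against MAL. Among these origin and fork genes Orc5, a subunit of the origin recognition complex, rose by 0.77 and 0.70, Gins1, of the helicase complex, by 0.76 and 0.82, and Tipin, of the fork protection complex, by 0.69 and 0.69. Without library 5, Gins1 had 0.70 against CON (adjusted p = 0.0649). Of 22 polymerase, clamp loader, and ligase genes 4 rose against CON and 2 against MAL, with Rpa2, of the single-strand binding complex, at 0.99 and 0.97 and the flap endonuclease Fen1 at 0.87 and 0.98. Library 5 did not stand out in these, with 23.4 CPM of Rpa2 and 23.4 CPM of Fen1 against 17.7 to 29.3 and 16.6 to 24.9 CPM over MAL-BG. Of 13 other nucleotide supply genes 1 rose against CON and 0 were called against MAL.

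Of 34 other mitotic genes 10 were higher and 1 lower against CON, and 3 higher and 2 lower without library 5. Against MAL 3 were higher and 0 lower, and 2 higher and 1 lower without library 5. Over all genes, 11.4% were higher and 21.7% lower against CON, and 11.2% and 22.5% without library 5. Against MAL the shares of all genes were 10.2% and 20.2%, and 10.3% and 21.0% without library 5. Pbk, a mitotic kinase, rose by 2.33 and 1.91, Melk by 1.87 and 1.16, and Espl1, separase, by 0.85 and 0.66. Pbk and Melk were at 10.03 and 5.48 CPM in library 5, their highest values, whereas Espl1 was at 44.2 CPM in a MAL-BG range of 32.3 to 51.9 CPM. Melk against MAL had 0.68 without library 5 (adjusted p = 0.130). Of 13 condensin and cohesin genes, Ncaph of condensin I rose by 0.61 and 0.58 and Ncapd3 of condensin II fell by 0.72 and 0.85. Without library 5, Ncaph was at 0.54 and 0.51, below the fold threshold. Of 14 genes of the anaphase-promoting complex 2 were higher against CON and 3 against MAL, with the activator Fzr1 at 0.79 and 0.80 and the inhibitor Fbxo5 at 0.95 and 0.87.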

How the data were processed

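RNA-Seq libraries of CD11b+ cells from 16 mice (CON 4, MAL 5, MAL-BG 7) were analysed. From stranded poly(A) libraries read in pairs, the authors aligned reads with STAR to GRCm38.p6 and deposited raw counts per gene made with HTSeq, for which the sources differ on the version. The strand option, counting mode, and annotation are not given in the sources used here. Column names gave the group but matched no sample title, so no pairing was fitted. The study's own model held a batch term, but no source used here ties a column to a batch, so every call rests on a fit without it.

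A gene entered the test if 4 or more libraries each held over 10 counts (14565 genes). All 3 groups were fitted together by the quasi-likelihood test of edgeR 4.0.16 in R 4.3.3 with TMM scaling and Benjamini-Hochberg adjustment over all genes tested, with calls at adjusted p below 0.05 and fold changes of 0.58 or more on the log2 scale in either direction. The script was tested on simulated data. Errors are standard errors, and p-values measure the spread between libraries of 1 mouse each. That spread holds mouse, batch, and preparation together, which cannot be told apart here. Totals of 10312703 to 18705202 counts leave counting error small except for genes with few counts, several G2/M genes among them. Which mice shared a cage is not given in the sources used here. Gene positions and exon lengths came from GENCODE for GRCm38, and promoter windows from RefSeq (GRCm38.p6).

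The 40 genes and the lists were chosen with earlier results of these data known. The 40 genes are all named, in full where called against CON or MAL and for Mki67, Top2a, Cdk1, Pcna, Mcm2, Ccne1, Ccne2, and Stmn1. From the other lists, some were named whether or not called (Csf1r, the D cyclins, CDK, RB, E2F, and inhibitor genes, Foxm1, Mybl2, Btg2), with up to 3 per list and direction called in both MAL-BG comparisons, by size against CON. Alternatives were other scalings, DESeq2 1.42.0, other filters, no fold change threshold, fits of 2 groups, thinned libraries, length and GC offsets, each library left out in turn, and, added after the data were seen, robust dispersion and combinations with library 5 left out. Ly6g and Trbc2 were not analysed here, and 27 rows had names like dates. Promoter letters were not tested, and summed levels were not tested between groups.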

Additional observations from a re-analysis of the deposited data

Results flagged for a closer look

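Within each group, the gap between the highest or lowest library and its neighbour was set against the range of the group by Dixon's criterion, in 126 tests over the 40 genes and the summed levels. By chance about 1 in 20 groups passes. MAL-BG library 5 was far above the other MAL-BG libraries in 35 of the 38 cases that passed. Among G2/M genes, its levels in CPM were Mki67 51.2, Top2a 57.4, Ccna2 30.4, Ccnb1 6.51, Ccnb2 16.6, Cdk1 20.2, Plk1 20.6, Aurka 8.95, Aurkb 10.1, Birc5 17.8, Bub1 6.73, Bub1b 16.9, Cenpe 10.1, Kif11 19.3, Kif20a 9.0, Kif23 12.6, Tpx2 18.8, Nusap1 13, Prc1 15.2, Ube2c 23.1, and Cdc20 19.5. Among S-phase genes they were Mcm2 23.4, Mcm5 39.0, Mcm6 37.4, Mcm7 38.6, Cdc6 5.26, Cdt1 19.1, Rrm1 51.4, Rrm2 24.1, Tk1 15.9, Ccne1 3.15, Ccne2 3.63, and Uhrf1 16.7. The G2/M sum of 412 CPM and the S-phase sum of 490 CPM passed as well. The neutrophil precursor sum of that library was 1132 CPM, and its part in these levels was not tested.

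The remaining 3 cases were single genes. Ccnb2 was at 2.99 CPM in CON 1, Nusap1 at 2.5 CPM in CON 4, and Mcm3 at 60.8 CPM in MAL 4, each the highest of its group.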

How the results depend on the processing

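No paired analysis was possible because the running numbers in the column names match no sample title. Against CON, the 11 called genes of the 40 became 6 without a scaling factor, 19 with DESeq2, and 24 with length and GC offsets and mean log2 CPM scaling. Over all genes, the 1659 higher calls became 1047, 1836, and 3603 under the same settings. Against MAL, the 1 called gene became 3 with DESeq2 size factors or thinned libraries, 0 with upper-quartile or no scaling, 6 with DESeq2, 4 without a fold threshold, and 12 with the offsets and mean scaling. Over all genes, higher calls against MAL were 1479 in the main fit, 1648 with DESeq2 size factors, and 1425 with thinned libraries. They were 1354 with upper-quartile scaling, 872 without scaling, 1731 with DESeq2, 2940 without a fold threshold, and 3325 with the offsets and mean scaling. Leaving out 1 library at a time gave 7 to 17 calls against CON, 0 to 5 against MAL, and 0 in MAL against CON. Combinations with library 5 left out were chosen after seeing the data. They gave 7 calls against CON with upper-quartile scaling, 4 without scaling, 5 with length and GC offsets, and 13 with mean scaling added. Against MAL, where leaving out library 5 lost the higher call of Mcm3 and gave 1 lower call, of Kif11, they gave 2 with DESeq2 size factors, 1 with upper-quartile scaling, 2 without scaling, 2 with length and GC offsets, and 4 with mean scaling added. With a further library left out, 3 to 11 were higher and 0 to 1 lower against CON, and 0 to 3 higher and 1 to 2 lower against MAL.

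Kif11 was the gene that changed sign and was called after it. Against CON, Kif23, Cdt1, Gins2, Pcna, and Ccne1 also changed sign without library 5, with no call on either side. Its log2 fold change without library 5 was -0.69 against CON, -0.65 with DESeq2 size factors, -0.69 with upper-quartile scaling, -0.81 without scaling, and -0.60 with length and GC offsets. Leaving out 1 library or library 5 and 1 more gave -0.90 to 0.54. Against MAL, Kif11 was at -0.67 with DESeq2, which replaced its count in library 5, and without library 5 at -0.80, then -0.75, -0.81, -0.93, and -0.67 under the same settings, with -0.85 to 0.41 over the left-out libraries. Apart from the left-out library and DESeq2's replacement, the causes were not tested. Genes of about 20 counts per library, such as Ccnb1 and Ccne2, are limited by depth, and Ccnb1 had 5 to 9 counts in CON.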
